A study of Mus musculus with 4 samples.

Results

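Genes of cholesterol and fatty acid synthesis were examined in mouse regulatory T cells, lymphocytes of the CD4+ lineage that dampen immunity. The set holds 40 genes out of the 50600 listed: the sterol regulatory factors and their partners, the enzymes of the mevalonate and sterol pathways, genes of sterol handling and export, and the enzymes that make, desaturate and elongate fatty acids. Members were matched by gene symbol, and all 40 were found. RNA of primary regulatory T cells of the C57BL/6NJ strain was sequenced as 4 replicate libraries of 1 group, with no other cell type, genotype or treatment set against them. The labels give an unknown age and an uncollected sex, assign a biosample to each library and 1 shared donor record to all, and point to a CD4+ differentiation protocol. Names inside the files carry the words activated and 48 hours, which is not stated in the labels. How many animals or cultures stand behind the biosamples is not given in the labels. Each p-value below therefore reflects spread among these samples alone, some of it possibly technical.

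Cells make cholesterol from acetyl-CoA through mevalonate, isoprenoids, squalene and lanosterol. The transcription factors encoded by Srebf1 and Srebf2 drive these genes and those of fatty acid synthesis. They are held in the endoplasmic reticulum by Scap and the Insig proteins while sterol is plentiful, and are carried to the Golgi and cut free when it falls. Liver X receptors, encoded by Nr1h2 and Nr1h3, respond to oxidised sterols and raise export genes such as Abca1 and Abcg1. Activated lymphocytes are known to take up and make lipids as they grow, and the mevalonate pathway is known to matter for regulatory T cell function.

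The upstream stretches of 4 members are shown because these genes are abundant and their windows hold the letters discussed here; they were chosen after the matches were known. They come from RefSeq on build GRCm38, which is mm10, are written 5′ to 3′ on the strand of the gene, and end before the transcript start or before an annotated exon. Srebf2, the sterol factor itself, lies at chr15:82147019-82147265 on the plus strand. Insig1, its retention partner, is at chr5:28071162-28071362 on the plus strand. Hmgcs1, the synthase that opens the mevalonate arm, is at chr13:119690101-119690350 on the plus strand. Fasn, the fatty acid synthase, is at chr11:120824548-120824797 on the minus strand. Capitals mark each match, on either strand, to the motifs ATCACCCCA and TCACCCCAC of the sterol regulatory element, the E-box CACGTG, the letters CCAAT, and the Sp1 motif GGGCGG.
Srebf2: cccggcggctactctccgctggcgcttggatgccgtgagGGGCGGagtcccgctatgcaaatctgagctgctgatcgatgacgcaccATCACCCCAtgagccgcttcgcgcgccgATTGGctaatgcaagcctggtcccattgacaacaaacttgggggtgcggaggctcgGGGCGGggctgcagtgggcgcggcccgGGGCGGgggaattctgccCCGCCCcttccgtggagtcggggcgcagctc
Insig1: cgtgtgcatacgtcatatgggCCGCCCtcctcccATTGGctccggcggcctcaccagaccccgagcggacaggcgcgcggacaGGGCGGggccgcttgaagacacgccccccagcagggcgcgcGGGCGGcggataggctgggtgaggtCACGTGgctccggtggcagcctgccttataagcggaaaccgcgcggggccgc
Hmgcs1: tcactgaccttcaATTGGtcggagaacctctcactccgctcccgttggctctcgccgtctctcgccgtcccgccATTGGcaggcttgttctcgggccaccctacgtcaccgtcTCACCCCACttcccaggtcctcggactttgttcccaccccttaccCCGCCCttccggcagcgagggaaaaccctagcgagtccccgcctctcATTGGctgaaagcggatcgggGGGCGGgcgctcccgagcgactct
Fasn: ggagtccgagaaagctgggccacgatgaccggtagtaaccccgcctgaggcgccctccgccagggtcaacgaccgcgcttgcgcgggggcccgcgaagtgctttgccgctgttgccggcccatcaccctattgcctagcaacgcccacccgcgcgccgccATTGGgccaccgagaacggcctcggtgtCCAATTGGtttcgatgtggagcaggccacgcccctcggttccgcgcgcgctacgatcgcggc

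Of the 40 members, 32 had a promoter entry of 300 bases, from 250 before to 50 after the start. These 32 had 42 entries, and a gene was counted if any of its entries held a match. Shares of all promoters count single entries, so shares of expressed genes are the closer comparison. The classical sterol regulatory element, which reads ATCACCCCA followed by a C, was in none of the 32, and 0.0913% of all 32851 promoters held it. Its leading 9 letters, ATCACCCCA, were found in Srebf2 at position -163 from the start, against 0.280% of all promoters and 0.259% of expressed genes. Its trailing 9 letters, TCACCCCAC, were found in Hmgcs1 at position -137, against 0.551% of all promoters and 0.719% of expressed genes. Both shorter forms were kept after the full element had given no match among the members, and other motif forms that were looked at are not given. The E-box CACGTG was in the promoters of 7 members, Abca1, Dhcr7, Elovl5, Hsd17b7, Insig1, Sc5d and Scap, against 7.15% of promoters and 12.3% of the 8489 expressed genes with an entry.

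CCAAT, the letters bound by the NF-Y complex, was in 24 of the 32 members, or 75%, against 43.6% of expressed genes and 37.4% of all promoters. GGGCGG, a binding sequence of Sp1, was in 25 of 32, against 70.6% of expressed genes and 35.7% of all promoters. The direct repeat of AGGTCA with 4 free bases between the copies, which liver X receptors bind, was in none of the 32 and in 0.0152% of all promoters. In the Fasn stretch the run CCAATTGG holds a CCAAT match on each strand, and these overlap. These matches describe the letters of the windows and are not binding sites.

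The libraries held between 43821767 and 73819468 counts. Fragments of the members made up 0.984% to 1.04% of all counts in a library. Pairs of libraries differed by more than sampling noise, with a chi-square statistic per degree of freedom of 11.1 to 24.4. The libraries also differed in sex-linked RNA: in the order of replicates, Xist gave TPM values of 172, 145, 0.255 and 0.367, whereas the Y-linked Eif2s3y gave 0.0761, 0.0836, 48.3 and 57.7. Replicates 1 and 2 thus carried female RNA and replicates 3 and 4 male RNA, which a single donor animal would not give, so the 4 libraries hold at least 2 sources and the SDs below include any difference between them. TPM, a length-scaled share of the library, was computed from the counts and the deposited exon lengths. All 6 regulatory T markers, Foxp3 among them, and all 6 pan T markers reached a TPM of 1 in every library, with sums of 3981 to 4035 and 2952 to 3069. The 4 markers of cycling cells, Mki67, Top2a, Pcna and Mcm3, did so too, with a sum of 1675 to 1727. Within the regulatory T list, levels ran from Ikzf2 at 13.2 ± 1.99 TPM to Il2ra at 1488 ± 19.4, with Foxp3 at 289 ± 23.5. Most of that list's sum came from Il2ra, Tnfrsf4 and Tnfrsf18. Markers of other cells differed from list to list. The 6 myeloid markers summed to 4.51 to 6.50 TPM, with Lyz2 and S100a8 at 0 counts, and the 6 adipocyte and hepatocyte markers, from tissues rich in lipid synthesis, to at most 0.100. Among the 6 B cell markers, which summed to 397 to 429.7 TPM, Ighm held 403 ± 14.5 while Ms4a1 averaged 0.0151. The 5 CD8 T and natural killer markers summed to 72.6 to 96.5 TPM, of which Nkg7 held 72.1 ± 9.56 and Cd8b1 11.7 ± 1.75, with Ncr1 at 0 counts. The part of these markers in the values below was not tested.

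Lipid synthesis genes were broadly transcribed. Genes that reached a TPM of 1 in every library are called expressed, and 39 of the 40 members were, against 22.9% of all genes and 47.2% of protein-coding genes. A TPM above 100 in all 4 was reached by 16 members, against 3.98% of all genes and 9.09% of protein-coding genes. Members were chosen with earlier results of these data known. Relatives that were not expressed, among them Scd3, Elovl2, Fads3 and Acacb, stand outside the 40. Both shares therefore depend on which relatives were listed as members. The median member stood at 87.1 TPM, whereas the median of the 11593 expressed genes was 28.6 and that of the 10274 expressed protein-coding genes 33.7. Of the members, 33 lay above the median expressed gene and 11 lay in the top decile of expressed genes. In such bulk RNA a transcript carried by fewer cells and one at a lower level per cell cannot be told apart. Together the 40 genes held 0.704 ± 0.0181% of all TPM (SD, n = 4).

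**Figure D1:**
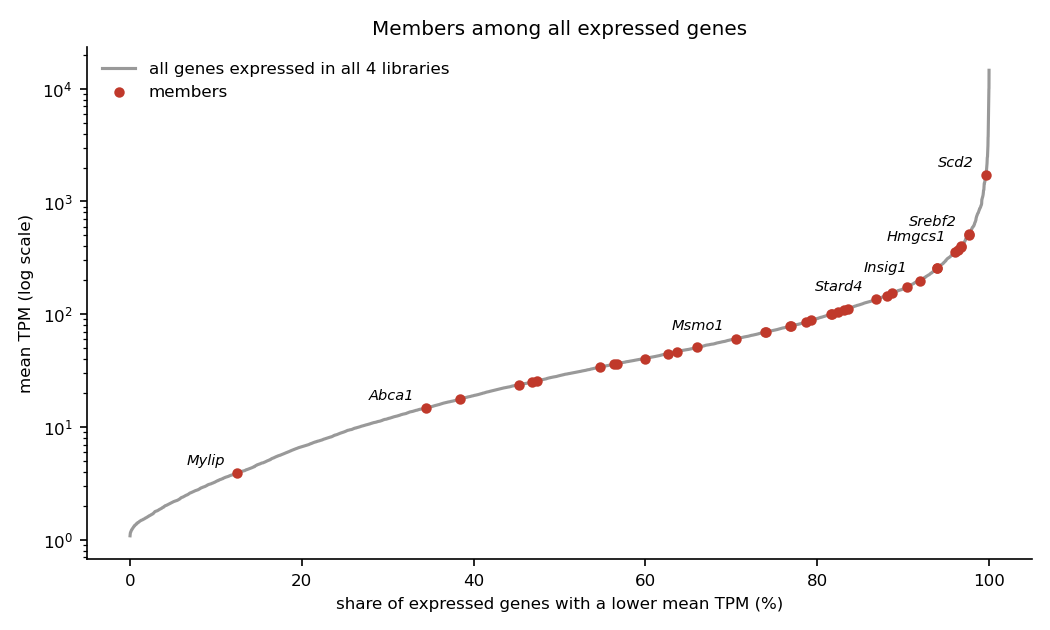
Mean TPM on a log scale against the share of the 11593 expressed genes with a lower mean, in percent, as a grey curve for all expressed genes and red points for the 39 expressed members. Most points lie right of the middle, from Mylip at 12.5% to Scd2 at 99.6%, and Nr1h3, below a TPM of 1, is not drawn.

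Transcripts of desaturases and elongases, which shape fatty acid chains, held the largest share of the members' TPM, 41.0% over 7 genes, most of it from 1 gene. By the median gene the group stood at 175 TPM, below the regulators at 199 and the 3 fatty acid synthesis genes at 393. Scd2, a stearoyl-CoA desaturase that puts the double bond into saturated chains (ENSMUSG00000025203, chr19:44293676-44306864), led all 40 members. It stood at 1699, 1720.3, 1668 and 1750.0 TPM in replicates 1 to 4, a mean of 1709 ± 34.6 (SD, n = 4), above 99.6% of expressed genes. Its 4 libraries differed by a factor of 1.05 at most. Its neighbour on chromosome 19 and close relative Scd1 stood at 487, 524, 498 and 525 TPM. The ranges of the pair did not overlap with each other, and Scd2 was 3.36 ± 0.0872 times as abundant as Scd1 within a library. Little of either gene's sequence is shared with another gene: 3.97% of the 50-base words of Scd2 and 4.56% of those of Scd1 occur elsewhere among annotated transcripts. The remaining relatives Scd3 and Scd4, outside the 40, averaged 0.00418 and 0.300 TPM.

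The delta desaturases, which make polyunsaturated chains, followed. Fads2 stood at 252, 239.7, 255 and 280.3 TPM and Fads1 at 87.4, 87.2, 84.5 and 84.3, with no overlap. The ratio of 3.00 ± 0.246 depends on length, since the deposited length of Fads2 is 1508 bases and its longest coding transcript in GENCODE M21 has 3150. With transcript lengths the ratio was 1.44 ± 0.118, still above 1 in all 4 libraries. Among elongases, Elovl1, which extends saturated and long chains, averaged 175 ± 4.71 TPM, Elovl5, which extends polyunsaturated chains, 101 ± 5.27, and Elovl6, which extends palmitate, 46.8 ± 2.29. The order of the 3 elongases was the same in every library.

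The cytosolic route from citrate to palmitate was uneven. Acly, which frees acetyl-CoA from citrate, stood at 407, 370.0, 380.3 and 415 TPM. Fasn, which builds palmitate (chr11:120805846-120824547), stood at 462, 336, 397 and 413. The ranges of Acly and Fasn overlapped. Acaca, the carboxylase that makes malonyl-CoA between them, stood far below both at 28.0, 23.8, 23.9 and 24.8. Acly was 15.7 ± 0.923 times and Fasn 16.0 ± 1.22 times as abundant as Acaca. The level of Acaca carries more doubt than theirs, because 30.4% of its 50-base words also occur in transcripts of other genes, of which Gm5182 shares the most words, and its exons sum to 17074 bases against 9513 in its longest coding transcript. With transcript lengths the ratios to Acaca were 10.4 ± 0.614 and 9.68 ± 0.743.

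Regulators of the pathway were abundant, with both sterol factors among the top 10 members. Srebf2, the factor tied mostly to cholesterol genes (chr15:82147266-82205376), stood at 533, 462, 511 and 537 TPM. Srebf1, tied mostly to fatty acid genes, stood at 280.0, 231, 242 and 268. Every library of Srebf2 lay above every library of Srebf1, and the ratio was 2.00 ± 0.0854. Both genes were lowest in replicate 2. The counts do not separate the isoforms of Srebf1. Scap, their escort, stood at 88.4 ± 7.61 TPM. Of the retention proteins, Insig1, itself a known target of the sterol factors, was at 196, 196, 210.1 and 193 TPM, and Insig2 at 23.1, 28.3, 25.5 and 26.0. Insig1 exceeded Insig2 by 7.77 ± 0.724 times, or 6.92 ± 0.645 times with transcript lengths, and the libraries of the pair lay far apart.

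In the mevalonate arm, 7 of 7 members were expressed and levels spanned an order of magnitude from enzyme to enzyme. Hmgcs1, which condenses acetyl-CoA units into the precursor of mevalonate, led with 368, 368, 375 and 389.9 TPM. Acat2, which supplies its substrate, stood at 92.6, 101, 113 and 113. The phosphomevalonate kinase Pmvk averaged 147 ± 9.91 and the decarboxylase Mvd 154 ± 14.3, and their ranges overlapped. The mevalonate kinase Mvk, which acts just before them, was lower at 40.6 ± 3.61. The isomerase Idi1, at 34.1 ± 1.21, and the farnesyl pyrophosphate synthase Fdps, at 36.0 ± 2.85, were the lowest of the arm. Those low values carry a limit of counting: 25.3% of the 50-base words of Idi1, 26.2% of those of Fdps and 39.1% of those of Acat2 occur in other genes, and 26.7% of the exon bases of Fdps lie within Gm43738 on the same strand. With transcript length Fdps was at 79.7 ± 6.16 TPM, above Mvk at 47.5 ± 4.33.

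All 11 members of the sterol arm, which runs from the making of squalene to cholesterol, were expressed, with a median of 78.3 TPM. Cyp51, the lanosterol demethylase, stood well above the rest at 342, 367, 359 and 365 TPM. Sqle, the squalene epoxidase and an established control point, followed at 109, 114, 114 and 111, with Ebp, a sterol isomerase, at 105, 108, 106 and 117 and Fdft1, the squalene synthase, at 100.4 ± 4.79. The ranges of Sqle and Ebp overlapped, while that of Cyp51 stood clear of both. The last reductase Dhcr7 averaged 78.6 ± 5.47, the desaturase Sc5d 78.3 ± 5.26, the dehydrogenase Nsdhl 69.7 ± 5.09 and the oxidase Msmo1 61.0 ± 3.24. Lanosterol synthase, Lss, at 50.9 ± 3.16, and the ketosteroid reductase Hsd17b7, at 44.9 ± 1.91, came next. The sterol reductase Tm7sf2 was lowest at 17.7 ± 0.881, and 15.3% of its exon bases are shared with Vps51 on the same strand. The order within this arm depends on the length used. With transcript length Msmo1 was at 133 ± 6.82 TPM, Dhcr7 at 118 ± 8.13, Lss at 85.4 ± 5.28 and Tm7sf2 at 29.9 ± 1.498, while Fdft1 was at 56.4 ± 2.60. Msmo1 then stood above Ebp, Nsdhl and Sc5d. Of the 50-base words of Fdft1, 26.5% occur on either strand in other genes, of which Ctsb shares the most. Yet 0% of the exon bases of Fdft1 are shared with a gene on the same strand.

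Ebp and Nsdhl are the 2 members on chromosome X. Nsdhl stood at 62.7, 73.2, 69.2 and 73.7 TPM in replicates 1 to 4. For neither gene did the 2 libraries with Xist lie on one side of the 2 without it: Nsdhl was lowest and second highest in replicates 1 and 2, and Ebp lowest and second highest.

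**Figure D2:**
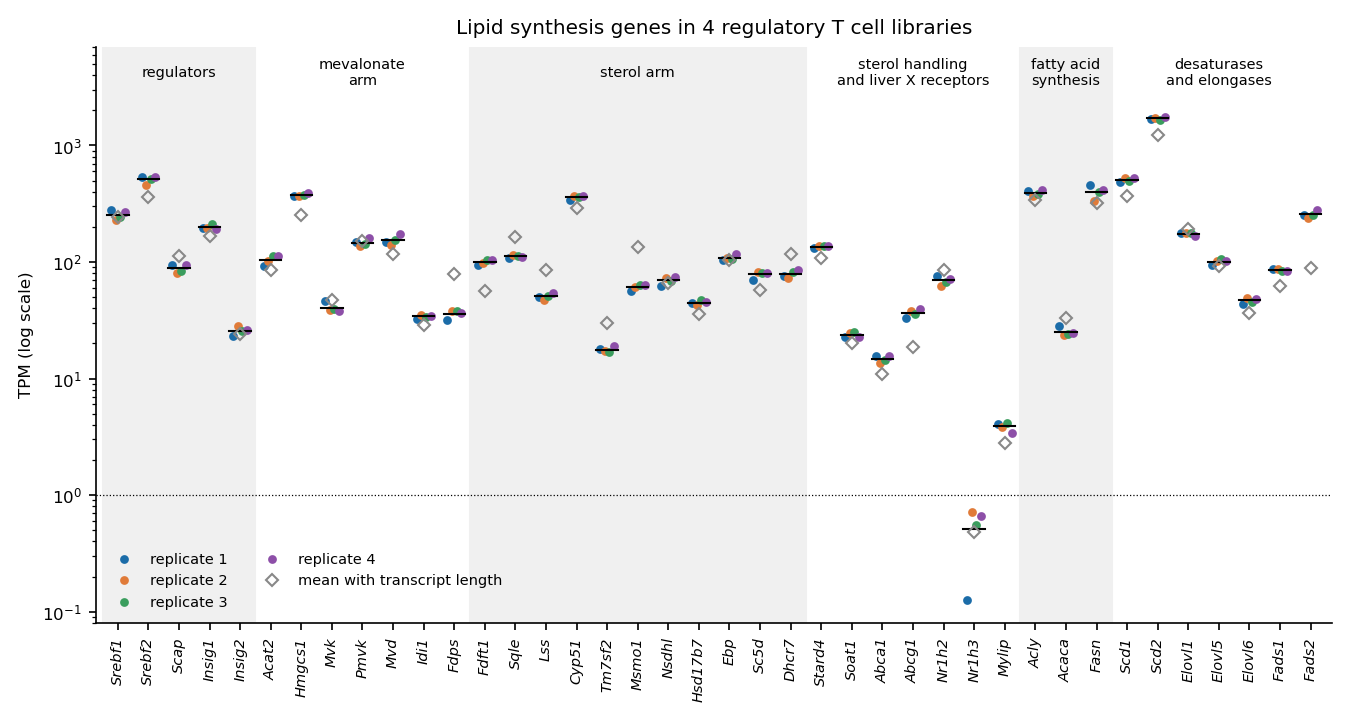
TPM on a log scale of the 40 members in groups by role. Coloured points are the 4 libraries, black bars their means, the dotted line a TPM of 1, and grey diamonds the mean when counts are divided by the length of the longest coding transcript. Scd2 at 1709 tops the plot and Nr1h3 at 0.513 lies under the dotted line, and diamonds far from their bars, as for Fads2 and Msmo1, mark levels that move with the length used. The diamonds also hold a rescaling of the whole library, seen for Scd2, whose own length hardly changes.

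Genes of sterol handling and of the liver X receptor arm were the least abundant group, with a median of 23.8 TPM and 4.05% of the members' TPM. Stard4, a carrier of cholesterol between membranes and a known target of the sterol factors, was its highest member at 131, 138, 137 and 136 TPM. The exporters stood lower. Abcg1 was at 32.9, 38.1, 36.0 and 39.4, and Abca1 at 15.6, 13.5, 14.5 and 15.5. Abcg1 exceeded Abca1 by 2.49 ± 0.289 times, or 1.72 ± 0.200 times with transcript lengths. Soat1, which esterifies cholesterol for storage, stood at 23.8 ± 1.20 TPM. Mylip, a ubiquitin ligase induced by liver X receptors, reached 4.09, 3.86, 4.19 and 3.43.

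The 2 liver X receptor genes differed widely. Nr1h2, which encodes the beta form, stood at 76.2, 62.6, 67.4 and 72.1 TPM. Nr1h3, which encodes the alpha form (chr2:91184061-91202834), stood at 0.126, 0.715, 0.551 and 0.660, the one member that was not expressed. Those values rest on 4, 31, 30 and 25 counts, where 3 counts in the library with the highest such value would be 0.0944 TPM, a floor for counting error only. Nr1h2 was 605, 87.6, 122 and 109 times as abundant in replicates 1 to 4. The mean log2 ratio was 7.35, and 6.72 without replicate 1, in which Nr1h3 had 4 counts.

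For 10 pairs of relatives or successive enzymes the ratio within a library was tested by flipping its sign over libraries. Every pair had the same sign in 4 of 4 libraries. The exact permutation test (two-sided) gave p = 0.13 for each pair, also 0.13 after Benjamini-Hochberg adjustment over the 10 pairs. That is the smallest p that 4 libraries allow, so no pair could pass 0.05. The direction of every pair was kept with transcript lengths. These ratios set different transcripts side by side and do not compare cells.

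**Figure D3:**
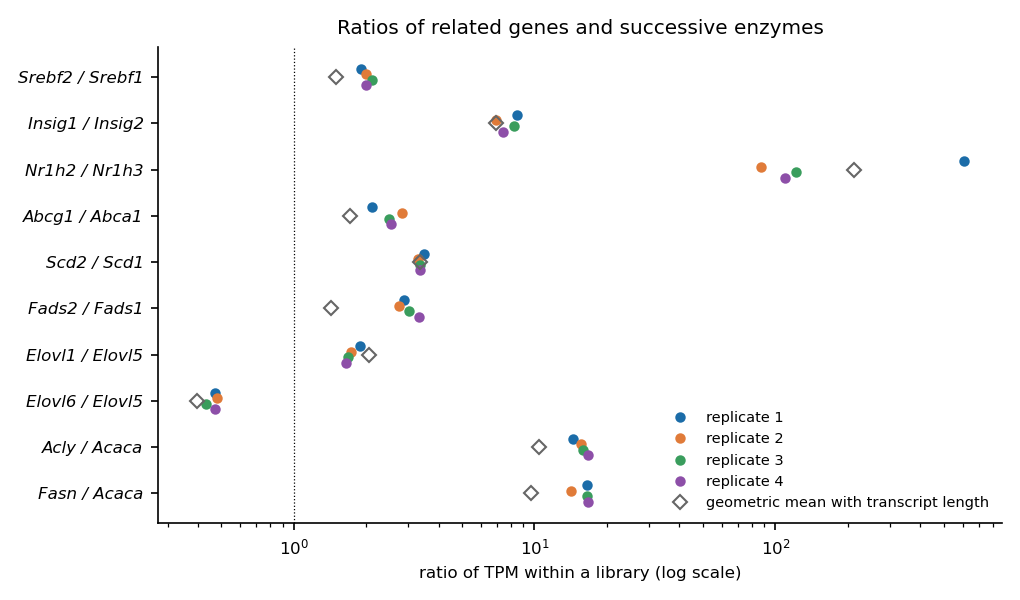
Ratio of TPM within a library, on a log scale, for 10 pairs of genes, with points for the 4 libraries and diamonds for the geometric mean when transcript lengths are used. The dotted line marks equal levels. Elovl6 over Elovl5 lies left of it at 0.464, the other ratios lie right of it, and replicate 1 stands apart for Nr1h2 over Nr1h3 at 605.

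Ranking the 40 members by mean TPM gives 39 pairs of neighbours. The libraries of 26 of these pairs overlapped and those of 13 did not. Of the 26, 4 had the same order in each of the 4 libraries. With transcript lengths 8 of these 13 steps stayed apart in the same direction, among them Scd2 above Srebf2, Cyp51 above Fads2, Srebf1 above Insig1 and Idi1 above Insig2. The means of 4 steps turned around, namely Hmgcs1 above Cyp51, Insig1 above Elovl1, Stard4 above Sqle and Soat1 above Tm7sf2, and Scd1 and Fasn overlapped. Stard4 was then at 108 ± 2.19 TPM and Sqle at 164 ± 3.57. Srebf2 and Scd1, at 511 and 509 TPM, did not differ beyond their spread. In the run from Sqle down to Msmo1 each gene overlapped with the next. Changing the length to that of the longest coding transcript moved the TPM of 8 members by over 1.5 times. Fdps, Lss, Tm7sf2, Msmo1 and Dhcr7 then stood higher, whereas Fdft1, Abcg1 and Fads2 stood lower. For these last 3 the M21 transcript is longer than the exons that were counted, so the second value may be too low. Part of each move is a rescaling of the whole library, since all lengths were changed together. Scd1, with 4836 deposited bases and 4832 in its transcript, went from 509 to 370 TPM.

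Other genes of lipid metabolism, taken from 8 lists outside the 40, were expressed in 59 of 75 cases, against the same 47.2% of protein-coding genes. In the list of factor processing and sterol sensing 8 of 8 were expressed, among them the ubiquitin-conjugating enzyme Ube2g2 at 115 ± 4.21 TPM and Pgrmc1 at 99.3 ± 3.56, with Erlin1 at 17.4 ± 0.987 and the protease Mbtps2 at 13.7 ± 0.689 lowest. The isoprenoid branches also had 9 of 9 expressed. There Nus1 and Dhdds, which together make dolichol, stood at 93.9 ± 4.95 and 67.7 ± 1.98 TPM and the farnesyltransferase chain Fnta at 76.3 ± 4.69, while Pdss1 and Pdss2, which make the tail of ubiquinone, were at 19.3 ± 0.686 and 8.88 ± 0.892. Sterol transport and esterification had 10 of 10, from the sterol transfer protein Gramd1a at 219 ± 10.4, Tmem97 at 215 ± 10.5 and the lysosomal Npc2 at 124 ± 7.36 down to Nceh1 at 14.0 ± 0.661 and Soat2, the relative of Soat1, at 10.7 ± 1.89.

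Supply of acetyl-CoA and NADPH was represented by 5 of 6 genes. The citrate carrier Slc25a1 stood at 211 ± 9.25 TPM and the pentose phosphate dehydrogenases Pgd and G6pdx at 154 ± 6.95 and 139 ± 2.83. The acetate-using synthetase Acss2 was at 6.63 ± 0.483 and the malic enzyme Me1 at 0.152 ± 0.0653. In further fatty acid synthesis and elongation 6 of 15 were expressed, and the list split sharply. The shared enzymes of the elongation cycle Tecr, Hacd3 and Hsd17b12 stood at 254 ± 6.01, 171 ± 6.76 and 168 ± 5.48, while Thrsp, known from liver and fat, and Scd3 were at 0.0106 ± 0.0211 and 0.00418 ± 0.00836, each with at most 2 counts in a library.

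Fatty acid activation and uptake had 8 of 9 expressed, with the acyl-CoA synthetases Acsl5 and Acsl4 at 422 ± 14.1 and 138 ± 1.51 and the binding protein Fabp5 at 104 ± 4.11. The transporter Slc27a1 was at 5.57 ± 0.458. The uptake receptor Cd36 stood at 2.62, 1.39, 0.746 and 0.832 TPM and missed the threshold in 2 libraries. Fatty acid oxidation had 8 of 10, led by Acadvl at 180.1 ± 6.13, Acadl at 132 ± 4.26 and Hadha at 71.3 ± 1.24, with the muscle isoform Cpt1b at 0.515 ± 0.169 and the receptor Ppara at 0.00980 ± 0.0119. Of 8 genes listed as targets, partners or relatives of liver X receptors, 5 were expressed. The partner receptor Rxra stood at 126 ± 22.3, the corepressor Ncor1 at 103 ± 4.32 and the target Lpcat3 at 97.6 ± 4.05, while Abcg5, Abcg8 and Nr1h4 had 0 counts in every library, against floors of 0.0876, 0.0634 and 0.103 TPM.

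The median spread of the members between libraries was close to that of other genes. No background was matched to the members' higher levels. The coefficient of variation, the SD as a percent of the mean over the 4 libraries, had a median of 6.20% over the 39 expressed members and 6.52% over all expressed genes, and 20 of the 39 lay below the latter. Against other backgrounds the members' median lay slightly higher: it was 5.97% over expressed protein-coding genes and 5.90% over the 10146 expressed genes at or above the level of the lowest expressed member. Fads1 at 1.96%, Scd2 at 2.03%, Stard4 at 2.22% and Sqle at 2.35% were the steadiest. Fasn at 12.9% was the most variable expressed member, above 79.9% of expressed genes, and its highest library was 1.37 times its lowest. Mvd and Acat2 followed at 9.29% and 9.26%. The median fell to 4.59% without replicate 1 and rose to 7.58% without replicate 3.

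No member was called in any library when each replicate was set against the other 3 with edgeR's quasi-likelihood test and Benjamini-Hochberg adjustment over 12917 genes. Over all genes the share called was 0.0697% for replicate 1 and 0.0232% for replicate 3, and 0% for the other two libraries. Only 39 members were tested, since Nr1h3 did not pass the filter on low counts. At an unadjusted p under 0.05 there were 9, 6, 0 and 1 members in replicates 1 to 4, against 9.31%, 6.78%, 2.31% and 2.49% of all genes tested. The lone member in replicate 4 was Mvd, chosen after its value was seen. In replicates 1 and 2 the share of the 39 members was thus larger than that of all genes tested. The median log2 shifts of the members were -0.045, -0.022, -0.0071 and 0.056 in replicates 1 to 4. Those of all genes tested were -0.0052, -0.0044, -0.0048 and -0.001. The cause was not tested. Over all genes, 1202, 876, 299 and 322 passed the unadjusted threshold. DESeq2 called 0, 1, 0 and 0 members, the one being Fasn in replicate 2, against 0.385%, 0.369%, 0.0619% and 0% of the genes given an adjusted p.

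Fasn differed most. It was higher in replicate 1 by 0.27 (SE 0.07) on the log2 scale, with an adjusted p of 0.19 in edgeR, and fell by 0.33 (SE 0.08) in replicate 2, with an adjusted p of 0.43 in edgeR. Its call in replicate 2 was reached in DESeq2 (adjusted p = 0.022), in edgeR without the filter on low counts (adjusted p = 0.0062) and in edgeR without replicate 1 (adjusted p = 0.033). The share of all genes called was 0.272% without the filter and 0.393% without replicate 1. In replicate 1 the call was reached in edgeR without replicate 4, for Fasn (adjusted p = 2.6e-05) and for Acaca (adjusted p = 0.044, higher by 0.22 with SE 0.07), where 341 of 13167 genes, or 2.59%, were called.

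Deviations were set against base composition in each library. In replicate 1, 8 of the 9 expressed members whose longest coding transcript has at least 55% GC lay above the mean of the other 3 libraries, and all 8 members under 45% lay below it. In replicate 2 all 9 GC-rich members lay below, with a median deviation of -0.19 on the log2 scale, and 6 of the 8 GC-poor ones lay above. In replicate 3 both classes leaned the same way as in replicate 2, with medians of -0.05 and 0.04. In replicate 4 the classes did not part, since 8 of 9 GC-rich and 7 of 8 GC-poor members lay above, with medians of 0.10 and 0.03. Over all expressed genes the medians of the GC-rich class were nearer to 0 than those of the GC-rich members, at 0.06, -0.08, -0.03 and 0.05 in replicates 1 to 4. Those of the GC-poor class were -0.03, 0.06, 0.0005 and -0.04, against -0.09, 0.05, 0.04 and 0.03 for the GC-poor members. The GC-poor members were thus not further from 0 in every library. Genes above and below were counted for the members only, so these counts have no share over all genes beside them. Fasn, with 57.9% GC, lay on the side of the GC-rich members in replicates 1 and 2. Across the 39 members Pearson's r between the GC content and the log2 deviation was 0.57, -0.69, -0.39 and 0.28 in replicates 1 to 4. Across the 10275 expressed genes with a coding transcript it was 0.10, -0.29, -0.05 and 0.19. Genes are not independent replicates, and the deviations of the 4 libraries share their reference, so these are descriptions. The part of base composition in the spread of Fasn was not tested.

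**Figure D4:**
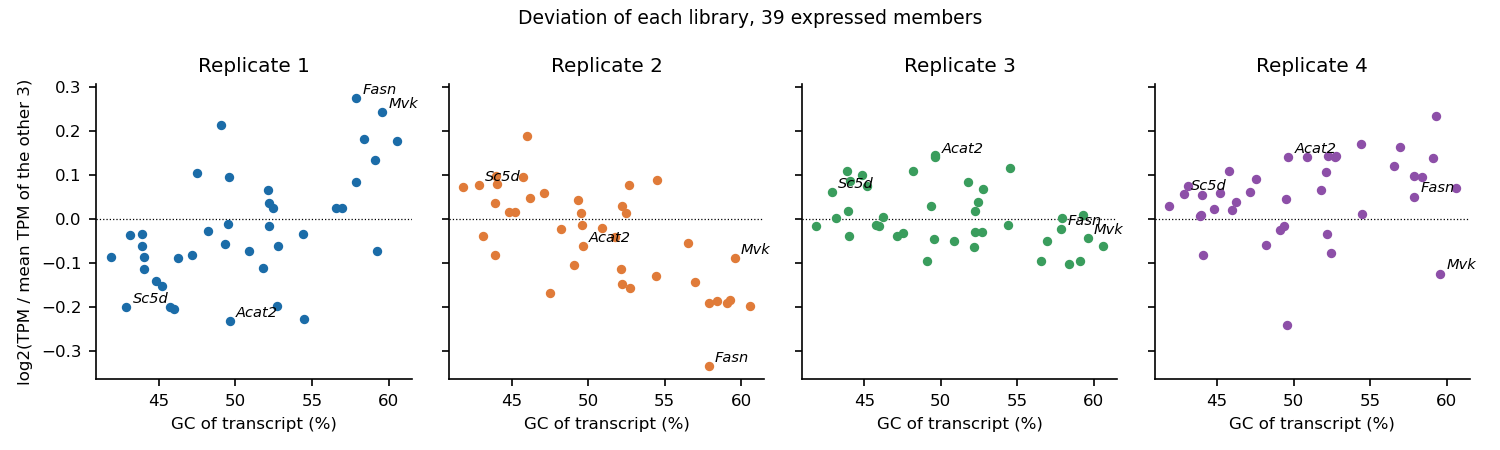
Deviation of each library from the mean of the other 3, as log2 of the TPM ratio, against the GC content of the longest coding transcript in percent, with a point for each of the 39 expressed members and the dotted line at no deviation. In replicate 1 the GC-rich points at right lie mostly above the line and in replicate 2 below it, with Fasn at the edge in both.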

How the data were processed

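The 4 deposited tables hold raw counts for each gene, which the authors obtained with featureCounts (1.4.6-p4) from mm10 alignments and GENCODE M13 exons, per the file headers. Counting was by fragment, reverse-stranded, and required both mates. The headers show no option for multi-mapping fragments, so a gene with close copies may be undercounted. The library protocol named in the labels is for polyadenylated RNA, while the assay is labelled total RNA. 

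Symbols and transcripts came from GENCODE M21, and 50376 of the 50600 genes received a symbol. TPM was computed here from counts and deposited exon lengths. The alternative length is that of the longest protein-coding transcript. Each replicate was tested against the other 3 with edgeR 4.0.16 (TMM scaling, filterByExpr for 1 group, quasi-likelihood test, Benjamini-Hochberg over all genes), a comparison of libraries, not conditions, which takes the single library to vary as the rest do. DESeq2 1.42.0 was an alternative. For a simulation, counts were drawn at the depths of the 4 libraries, with variance following its trend over expression level. Over 12917 genes, the edgeR step recovered 68% of 50 genes raised 1.5-fold in replicate 1 and 86% of 50 raised 2-fold. There were 5 false calls in all. Only increases of 1.5-fold or more were drawn, larger than the shift of any tested member. No difference by sex or base composition was drawn. Sharing of sequence was measured as the share of a gene's 50-base words found, on either strand, in transcripts of other genes. Words shared only on the opposite strand need not affect counts that are stranded.

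Members and lists were chosen with earlier results of these data known. All 40 members are accounted for. Of each other list of pathway genes, the 3 highest and 2 lowest by mean TPM are named, apart from a value that is not reported here, and further genes were named after their values were seen. The alternatives were FPKM, protein-coding TPM, transcript length, other thresholds, scalings and filters, and leaving out each library. The values by GC content were added after the data were seen.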

Additional observations from a re-analysis of the deposited data

Results flagged for a closer look

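Among the 40 members, 1 had a library apart from the other 3 by Dixon's criterion, which sets the gap to the nearest value against the whole range. Sc5d stood at 70.4 TPM in replicate 1 and at 81.4, 80.7 and 80.5 in the others. Chance flags about 1 in 20 such groups, more than the 2.5% of members flagged here, and the rule was not run over all genes. In edgeR's quasi-likelihood test Sc5d fell by 0.21 (SE 0.07) on the log2 scale in replicate 1, with a Benjamini-Hochberg adjusted p of 0.32. Its longest coding transcript has 42.9% GC, among the lowest of the members, and the part of base composition in this value was not tested.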

How the results depend on the processing

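Libraries could not be paired with one another because they form 1 group, and the only pairing was that of genes within a library. Every pair ratio kept its direction under each alternative run, and the count of expressed members stayed between 38 and 39. The median level of the members was 25.4 in FPKM and 91.6 as TPM over protein-coding genes, against 87.1 TPM, both by construction of the unit. The median spread ranged from 4.59% to 7.58% with a library left out. Counts of genes called over the whole table were small and unstable. They moved from 9 to 16 in replicate 1, from 0 to 19 in replicate 2 and from 3 to 8 in replicate 3 with DESeq2, and stayed at 0 in replicate 4. Without the filter on low counts they were 105, 60, 35 and 16. With another library left out they ranged from 23 to 341 in replicate 1, from 3 to 52 in replicate 2, from 16 to 21 in replicate 3 and from 2 to 9 in replicate 4, and the cause was not tested. Members called ranged from 0 to 2 in replicate 1 (Fasn and Acaca, without replicate 4) and from 0 to 1 in replicate 2 (Fasn, without replicate 1). Fasn was also the 1 member called in replicate 2 with DESeq2 and without the filter. With RLE scaling in edgeR the counts were 9, 0, 3 and 0. At this depth counting error limits Nr1h3, with 4 counts in replicate 1, while every other member had at least 158 counts in each library.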
